A study of Nematostella vectensis with 16 samples.

Results

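A group of 213 gene models of the starlet sea anemone, Nematostella vectensis, was described for its levels after exposure to 4 metals. The group was taken from 27273 gene models by a rule on CPM, which is the count of a gene divided by the total count of its library and multiplied by 1000000. A member had a control mean of at least 1 CPM, a mercury (Hg) mean at least 2 times the control mean, and a copper (Cu) mean from 1.4 to under 2 times the control mean. Every Hg and every Cu library lay above every control, and at least 1 cadmium (Cd) or zinc (Zn) library did not lie above all controls. Because the members were chosen on these values, their levels in Hg and Cu are given as a description, and the counts of calls in those contrasts support nothing further.

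Libraries were made from whole anemones aged 2 to 4 months, kept at 18 °C in the dark in artificial seawater of 12.5 ppt. The exposed groups held 3 pools for each of Hg, Cu, Cd and Zn, with 5 animals in a pool, exposed for 24 h to the chloride of 1 metal at 100 µg/L. The control group held 4 untreated pools, and strain, sex and genotype are not given in the labels. Library totals ran from 5494659 to 8113825 counts, so that 1 CPM stood for 5.49 to 8.11 counts. Nothing in the labels ties the pools to separate cultures or days, so a p-value here covers only the spread among these pools. In whole animals, fewer cells of a type and less RNA per cell cannot be told apart, and the same holds for more of either.

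Copper and zinc are essential metals, bound by many enzymes and held in cells within narrow limits by transporters and binding proteins. Mercury and cadmium have no known general role in animal cells and bind strongly to the thiol groups of proteins and of glutathione. Animals are known to answer an excess of such metals with metal-binding proteins, chaperones and antioxidant enzymes. Which members encode such proteins is not known here: 0 identifiers of the 27273 gene models matched a table of 38762 genes, so members are named by identifier, without function or sequence.

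Of the 16276 genes tested, 198 moved together between pools of the same group, and 0 members were among them. The rule favours genes with little spread between pools, so nothing is read from this absence. Summed levels of these pool-variable genes (on CPM scaled by TMM factors) were 308 to 670 CPM in 10 libraries and 1468 to 2684 CPM in the remaining 6, which were Cd 1, Zn 3, Cu 3, Hg 3 and controls 1 and 2. Values for the members are therefore given within both sets as well.

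Summed over the 213 members, the level was 1% ± 0.0628 (SD, n = 4) of a control library's total and 2.95% ± 0.0417 (SD, n = 3) of an Hg library's. In Cu pools the share was 1.59% ± 0.11 (SD, n = 3), in Cd pools 1.02% ± 0.0673 (SD, n = 3) and in Zn pools 0.977% ± 0.0222 (SD, n = 3). The controls, in order of their numbers, stood at 0.913%, 1.02%, 1.06% and 1.02%. The Hg libraries stood at 3%, 2.94% and 2.92%, the Cu libraries at 1.51%, 1.71% and 1.54%. In these sums every Hg library lay above every Cu library and every Cu library above every control. The rule sets Hg and Cu libraries above the controls in each gene and orders only the means of Hg and Cu. The Cd libraries held 0.956%, 1.09% and 1.02% and the Zn libraries 0.97%, 0.959% and 1%, within or close to the control range of 0.913% to 1.06%. These sums rest on few genes: the 10 members with the most counts held 40.1% of the summed control level and 1 member held 14.3%.

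**Figure D1:**
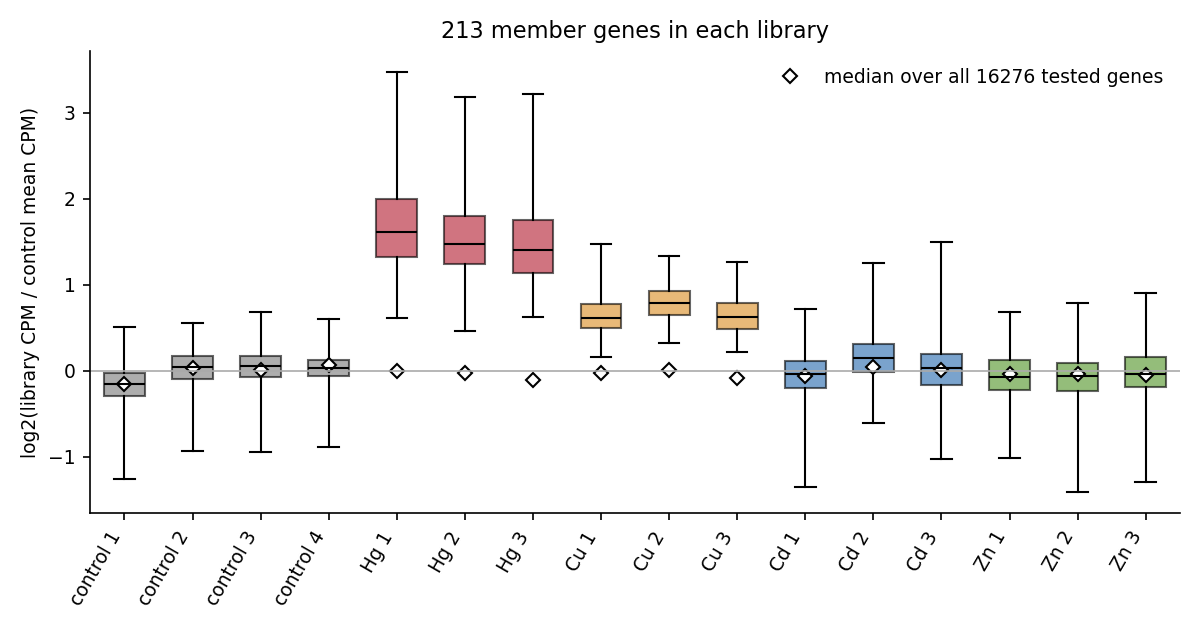
Levels of the 213 members in each library, as log2 of the library's CPM over the control mean CPM (boxes: quartiles and median, whiskers: lowest and highest member, diamonds: median over the 16276 tested genes). The 3 Hg boxes stand highest, the 3 Cu boxes between Hg and control, and the Cd and Zn boxes around 0.

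Member by member, the ratio of Hg to control ran from 2 to 9.23 with a median of 2.82, and the ratio of Cu to control from 1.4 to 2 with a median of 1.61. Over all 16276 tested genes these medians were 0.971 and 0.984. In Hg, 120 members lay from 2 to under 3 times control, 56 from 3 to under 4, 26 from 4 to under 6 and 11 at 6 or above. In Cu, 103 lay from 1.4 to under 1.6 times control, 64 from 1.6 to under 1.8 and 46 from 1.8 to under 2. Control means were under 10 CPM in 64 members, from 10 to under 100 CPM in 129 and from 100 CPM up in 20.

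**Figure D2:**
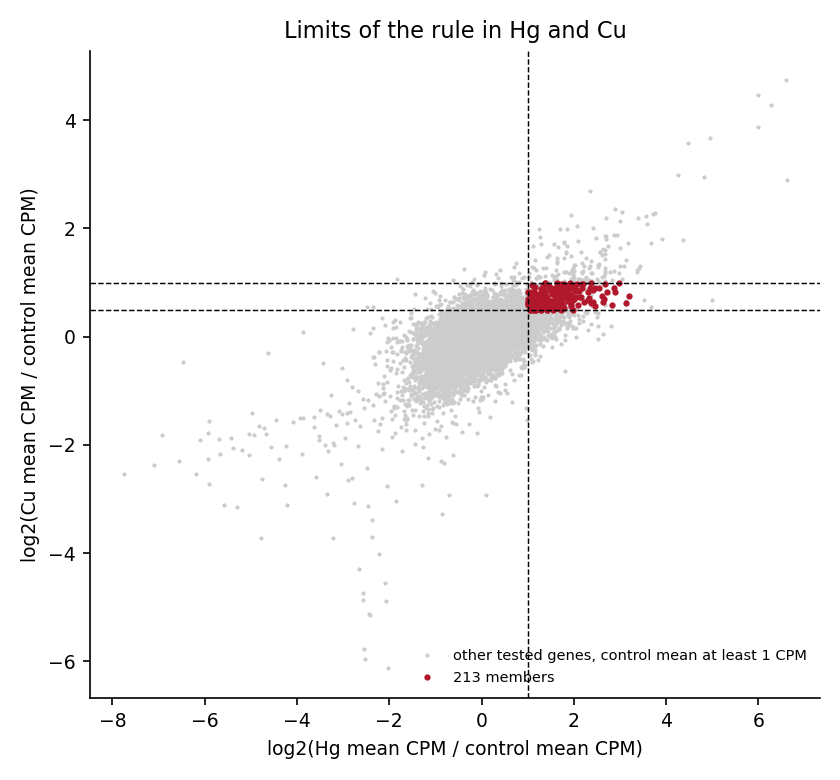
Log2 ratio of the Hg mean (x) and of the Cu mean (y) to the control mean, per gene with a control mean of at least 1 CPM. Dashed lines mark the limits of the rule (2 times control in Hg, 1.4 and 2 times control in Cu), and the 213 members fill the band between the Cu lines without a visible break from the genes above and below it.

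The band is a slice of a continuous range. The member nearest the lower Hg limit, v1g99390, had a control mean of 44.7 CPM and Hg at 2.002 times control, and the nearest gene outside stood at 1.997. At the lower Cu limit v1g77884 stood at 1.401 times control (4.59 CPM in controls, 6.43 CPM in Cu), and the nearest gene outside at 1.399. At the upper Cu limit v1g199243 stood at 1.998 times control (3.45 CPM in controls, 6.89 CPM in Cu), and the nearest outside at 2.015. The lowest control mean among members was 1.46 CPM, in v1g194295, and the highest of the 5 genes that met all conditions but the control floor was 0.898 CPM. Genes that met all conditions but one numbered 84 below the Hg limit, 102 below the lower Cu limit and 120 above the upper Cu limit.

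Replicate error was wide against the Cu band. The fitted Cu log2 fold change (edgeR) had a median of 0.68 and a median SE of 0.15. Its value plus 2 SE reached a doubling, log2 of 1, in 102 members, and its value minus 2 SE fell under the 1.4-fold limit in 160. Both held in 60 members, and in 11 members the whole interval lay within the band. The Hg log2 fold change had a median of 1.48 and a median SE of 0.14, and its value minus 2 SE stayed at or above 1 in 147 members.

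By edgeR's quasi-likelihood test with Benjamini-Hochberg adjustment over the 16276 tested genes, 213 of 213 members were called higher in Hg, against 15% of tested genes. In Cu 157 members (73.7%) were called higher, against 3% of tested genes. These contrasts chose the members, and nothing is read from the counts. Every Hg library lay above every control in 16.9% of tested genes and every Cu library in 7.1%, as the rule demands of each member. Without Cu 2, in a fit with fewer Cu pools, the Cu count was 103, and the share of tested genes called there is not given. The 56 members not called in Cu had a median control level of 7.61 CPM and a median Cu ratio of 1.62, and the 157 that were called had 24.4 CPM and 1.61. Split into 3 equal parts by control level, 33 of 71 were called in Cu in the lowest part (1.46 to 11.9 CPM), 56 of 71 in the middle and 68 of 71 in the highest (33.3 to 1438 CPM). Shares of tested genes called at these levels were not computed, so the counts by level are a description. In the authors' deposited table for Hg the adjusted p was under 0.05 for 210 members, against 9.68% of all genes with a value there. In the authors' deposited table for Cu it was under 0.05 for 106 members, against 1.41%.

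The 2 members with the largest Hg ratios also had the largest ratios of Hg to Cu. v1g36388 measured 3.4, 3.3, 4.29 and 5.08 CPM in the controls, 37.7, 36.2 and 37.3 CPM in Hg and 5.98, 7.55 and 6.81 CPM in Cu. Its Hg pools agreed closely, at 37.1 ± 0.749 CPM (SD, n = 3), and its Cu mean of 6.78 ± 0.783 CPM (SD, n = 3) was a small step above its highest control. The Hg mean was 9.23 times control and the Cu mean 1.69 times, so that the increase in Cu was 8.35% of that in Hg. In Cd it measured 4.07 to 5.14 CPM and in Zn 4.4 to 5.28 CPM, both overlapping the controls.

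v1g24362 measured 22.1, 25.3, 24.8 and 27.6 CPM in the controls and 221, 219 and 211 CPM in Hg, 8.71 times control by the means. In Cu it measured 30.6, 52.1 and 33.1 CPM, so that Cu 2 stood well above the other 2 Cu pools. Its Cu log2 fold change of 0.62 ± 0.17 (SE) put it among the 56 members not called by edgeR (edgeR adjusted p = 0.0518), while DESeq2 called it at 0.63. The authors' deposited adjusted p for this gene in Cu was not under 0.05. In Cd it measured 20.2 to 31.6 CPM and in Zn 26.6 to 39.8 CPM, and Zn 3 was above Cu 1 and Cu 3.

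The 11 members with Hg at 6 times control or above spanned control means of 2.04 to 88.1 CPM. Their Cu ratios ran from 1.5 to 1.98, and the increase in Cu was 7.1% to 18% of that in Hg. All 11 were called higher in Hg than in Cu, and 5 were called in Cu. The median Cu ratio of these 11 was 1.69, beside 1.61 over all members.

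The 2 members with the highest control means (counts were not divided by gene length) had Cu ratios near the lower limit of the rule. v1g241341 measured 1361, 1389, 1542 and 1461 CPM in controls, 3303, 3455 and 3709 CPM in Hg and 1958, 2190.4 and 2028 CPM in Cu. Hg stood at 2.43 times control and Cu at 1.43 times, with log2 fold changes of 1.27 ± 0.09 and 0.52 ± 0.09 (SE). Every Hg pool lay far above every Cu pool, and the Cd range of 1270.3 to 1429.6 CPM and the Zn range of 1331 to 1424 CPM overlapped the controls. v1g217964 measured 469.9, 630.3, 564 and 577 CPM in controls, 1111, 1099 and 1274 CPM in Hg and 688, 866 and 826 CPM in Cu. Every Cu pool lay below every Hg pool, and its Cd and Zn pools ran from 496 to 633 CPM, overlapping the controls.

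**Figure D3:**
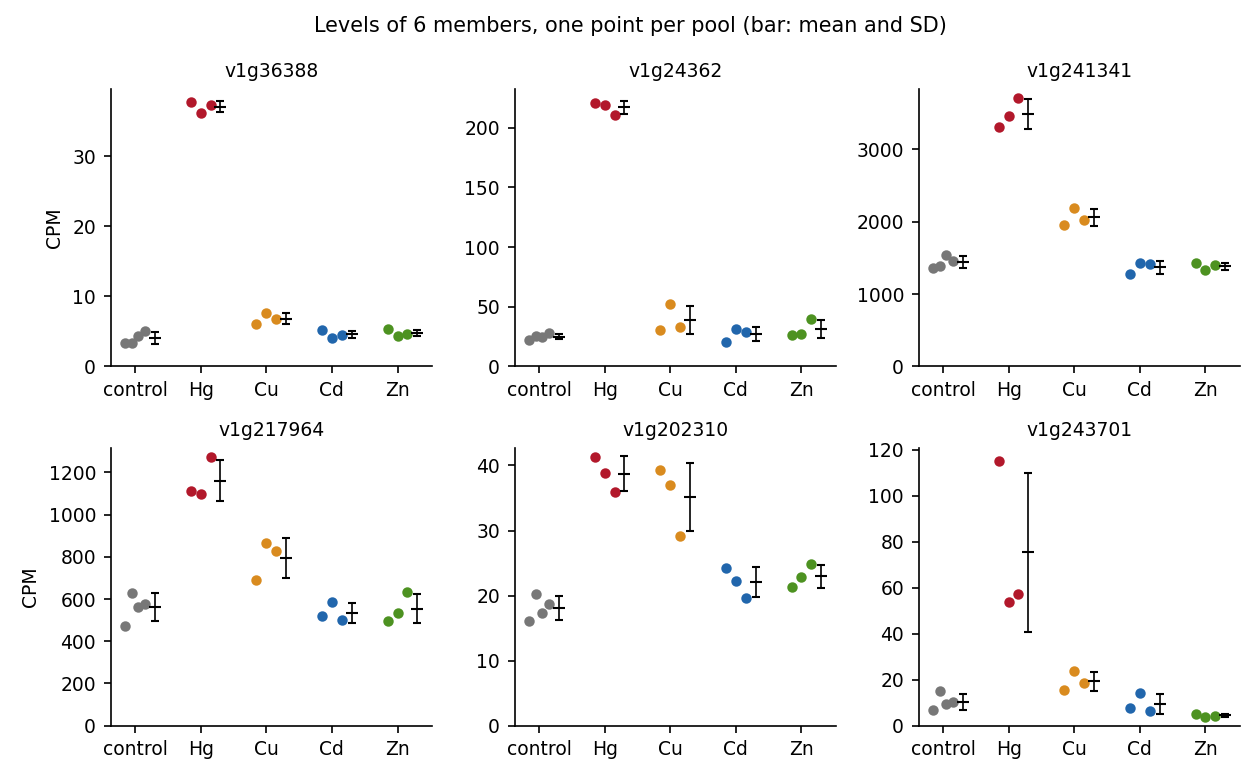
CPM of 6 members in every pool (points) with the mean and SD of each group beside them; each y axis is linear and starts at 0. v1g36388 and v1g24362 stand far higher in Hg than in any other group, v1g202310 is nearly level between Hg and Cu, and Hg 1 stands apart from the other Hg pools for v1g243701.

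Mercury and copper levels were then set against each other without the controls. The ratio of the Hg mean to the Cu mean ran from 1.1 to 5.63 with a median of 1.77, and it was at least 2 in 73 members. Every Hg library lay above every Cu library in 186 members (87.3%), against 17.9% of tested genes. By the edgeR contrast of Hg with Cu, 175 members (82.2%) were called higher in Hg, against 9.87% of tested genes, and 0 were called lower, against 4.37%. The rule holds Hg at or above 2 times control and Cu below it, so this difference is fixed in direction by the choice of members.

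Against Cd and Zn, Hg was called higher than Cd in 211 members (99.1%, against 14.2% of tested genes) and higher than Zn in 208 (97.7%, against 15.2%). Copper was called higher than Cd in 116 members (54.5%, against 2.16%) and higher than Zn in 139 (65.3%, against 2.82%), all by edgeR with the same adjustment. The choice of members used these groups too, and the counts are given as a description. Without Cu 2, in a fit with fewer Cu pools, 77 members were called higher in Cu than in Cd. The share of tested genes called in that fit is not given. The median log2 fold changes were 0.68 for Cu against Cd and 0.69 for Cu against Zn, and 1.49 and 1.51 for Hg against Cd and against Zn.

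Expressed as a share of the increase over control, the Cu increase had a median of 32.3% of the Hg increase and ran from 7.1% to 82.7%. It was under 50% in 185 members and under 25% in 60. At the upper end stood v1g202310, which had the smallest ratio of Hg to Cu. It measured 16.1 to 20.3 CPM in controls, 41.3, 38.9 and 36 CPM in Hg and 39.3, 37 and 29.2 CPM in Cu. The Hg and Cu pools overlapped, with Cu 1 above 2 of the Hg pools, and its Hg and Cu means were 38.7 ± 2.67 and 35.2 ± 5.32 CPM (SD, n = 3). All 3 Zn pools, at 21.3 to 24.8 CPM, were above its controls, while the Cd pools ran from 19.6 to 24.2 CPM.

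The 38 members not called between Hg and Cu had a median Hg ratio of 2.24 and a median Cu ratio of 1.75, so they lay toward the corner where the limits of the rule meet. The 27 members whose Hg and Cu libraries overlapped had medians of 2.22 and 1.72.

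Cadmium and zinc libraries entered the rule only as the condition that not all of them lie above the controls, which removed 3 genes. Their ratios and calls are set against the same controls that chose the members. Nothing is therefore read from differences between members and all tested genes in these values. The ratio of Cd to control ran from 0.65 to 1.68 with a median of 1.04, and that of Zn from 0.432 to 1.57 with a median of 0.972. The medians over all tested genes were 1.01 and 0.979. The mean was within 1.2 times control, either way, in 169 members for Cd and 176 for Zn. In edgeR 0 members were called higher and 0 lower in Cd, and 0 and 0 in Zn. Over all tested genes 0.0184% were called higher in Cd and 0.00614% in Zn, and 0% were called lower in either. DESeq2 also called 0 members in Cd and 0 in Zn. At an unadjusted p under 0.05 in edgeR, 15 members were higher and 7 lower in Cd (7.04% and 3.29%, against 3.64% and 3.39% of tested genes). In Zn 10 were higher and 8 lower (4.69% and 3.76%, against 3.16% and 3.87%).

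**Figure D4:**
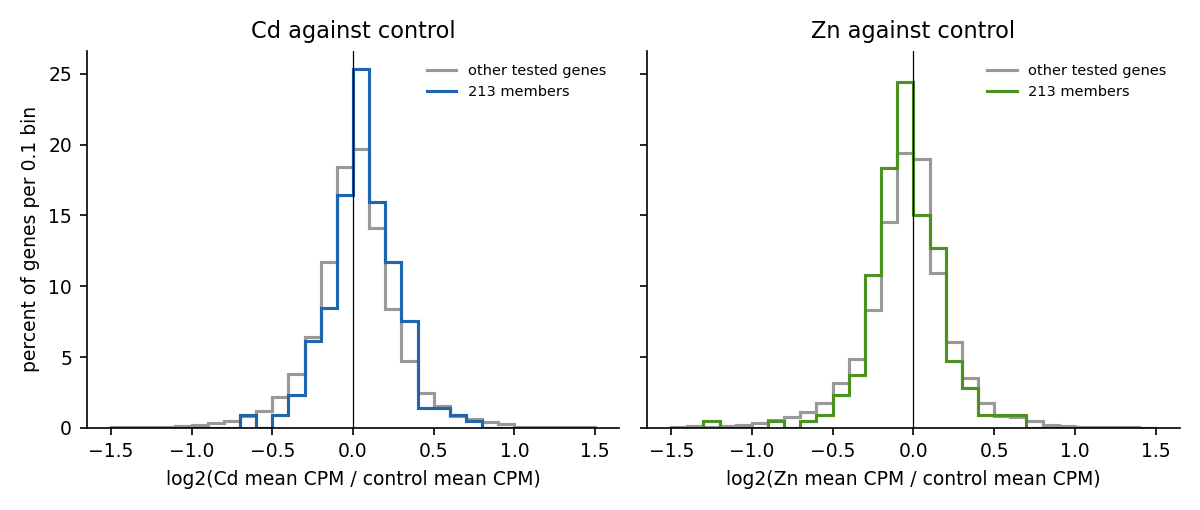
Distribution of the log2 ratio of the Cd mean (left) and the Zn mean (right) to the control mean over the 213 members and over the other tested genes, in bins of 0.1. Both member curves lie around 0; 110 (Cd) and 105 (Zn) other genes fall outside the drawn range of ±1.5.

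Counted by library, 97 members had 0 Cd libraries above all controls, 77 had 1, 31 had 2 and 8 had 3. For Zn these numbers were 143, 43, 19 and 8. All 3 libraries lay above all controls in 3.76% of members for Cd, against 3.97% of tested genes, and in 3.76% for Zn, against 2.69%. All 3 lay below all controls in 4 members for Cd (1.88%, against 1.7%) and in 9 for Zn (4.23%, against 3.08%). The rule itself removed the 3 genes in which every Cd and every Zn library lay above all controls, and with them the share above was 5.09% for each metal, 11 of 216 genes. The controls are those that chose the members, so nothing is read from these shares.

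The 2 members with the highest Cd and Zn levels relative to control are given library by library. v1g103967 had Cd libraries at 31, 26.4 and 72.9 CPM, of which Cd 3 alone was high, and Zn libraries at 28.8 to 34.1 CPM. Its controls measured 31.5 and 31.1 CPM (controls 1 and 2) and 21.1 and 19.6 CPM (controls 3 and 4). That is the same division as in the pool-variable genes. Hg stood at 85.7, 129 and 96.4 CPM and Cu at 41.7, 40.7 and 43.2 CPM. Of the exposed pools with high pool-variable genes, Hg 3 and Cd 1 lay between the others of their groups, and Cu 3 and Zn 3 lay highest. v1g100285 was measured by few reads. Its controls held 7, 16, 17 and 12 counts, 0.916 to 3.04 CPM, and its levels were 3.95 to 6.19 CPM in Hg, 3.06 to 4.61 CPM in Cu, 2.41 to 3.42 CPM in Cd and 2.39 to 4.12 CPM in Zn. Cu 3 exceeded the highest control by little, and the Cd and Zn pools overlapped both the controls and the Cu pools.

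The 2 members with the lowest Cd and Zn levels relative to control had Zn libraries below every control. v1g243701 measured 6.8 to 15 CPM in controls and 5.28, 3.9 and 4.25 CPM in Zn, with Cd at 6.31 to 14.3 CPM. In Cu it measured 15.4, 23.7 and 18.6 CPM, and in Hg 115, 53.6 and 57.3 CPM, with Hg 1 far above the other Hg pools. v1g205757 measured 42.1, 50.6, 40.4 and 47.3 CPM in controls and 25.9, 23.1 and 28.4 CPM in Zn, while Hg stood at 92.7 to 134 CPM and Cu at 54.5, 90.2 and 73.7 CPM. The Zn log2 fold changes were -1.18 ± 0.37 and -0.78 ± 0.2 (SE), and neither passed the test (edgeR adjusted p = 0.609 and 0.511).

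The contrast of Cd with Zn had no part in the rule, which treats those metals alike. Among the members 0 were called by edgeR and 0 by DESeq2, and 0% of all tested genes were called by edgeR. At an unadjusted p under 0.05, 11 members were higher in Cd and 7 lower (5.16% and 3.29%, against 2.17% and 1.51% of tested genes, 3.68% in all). The median log2 fold change of Cd against Zn was 0.05 over members, with a range of -0.77 to 1.02 and a median SE of 0.16, and 0.01 over tested genes. Cd 2 was the highest Cd pool in 59.2% of members, against 41.6% of tested genes, and its part in this contrast was not tested. The log2 fold change of Cd against Zn was above 0 in 65.3% of members and in 51.3% of tested genes. The largest belonged to v1g243701, at 1.02 ± 0.4 (SE), which was not called (edgeR adjusted p = 1).

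Members were not equally placed in the pools of a group. Cu 2 held the highest value of the Cu pools in 136 members (63.8%, against 44.5% of tested genes) and Cd 2 the highest of the Cd pools in 126 (59.2%, against 41.6%). The median ratio to the control mean was 1.53, 1.73 and 1.55 in Cu 1 to Cu 3, and 0.972, 1.11 and 1.02 in Cd 1 to Cd 3. Hg 1 was highest of the Hg pools in 110 members (51.6%, against 42.5%), and the Hg medians were 3.06, 2.77 and 2.66. Control 1 was lowest of the controls in 110 members (51.6%, against 46.8%), at a median of 0.898, and over all tested genes its median was 0.9. The Zn medians were 0.954, 0.959 and 0.979. The part of these library differences in the ratios was not tested.

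Within the libraries with high pool-variable genes, Hg 3 against controls 1 and 2 had a median ratio of 2.78 over members and Cu 3 a median of 1.6. Within the others, Hg 1 and 2 against controls 3 and 4 had 2.84, and Cu 1 and 2 had 1.59. All 213 members were above control in each of these 4 readings, as the rule requires. Cd stood at 1.01 and 1.05 in the high and low sets, and Zn at 1.01 and 0.953, beside 0.996, 1, 1.01 and 0.954 over all tested genes. The rule used all of these Hg, Cu and control libraries, so nothing is read from the likeness of the Hg and Cu medians between the sets. Zn against control moved with the set in members and in all genes alike.

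To read the levels in a library that had no part in choosing genes, the rule was applied with each library left out in turn. Without 1 Hg library it chose 208, 213 and 211 genes, of which 201, 201 and 206 were members. In the Hg library left out, 98.1% to 100% of the chosen genes lay above all controls, against 23.9% to 32.4% of genes with a control mean of at least 1 CPM. The median ratio in the left-out library was 3.05, 2.77 and 2.66 for Hg 1, Hg 2 and Hg 3, beside 2.77, 2.9 and 2.9 in the pools that chose the genes. Without 1 Cu library it chose 261, 198 and 250 genes, of which 196, 170 and 196 were members. In the Cu library left out 86.6% to 95.5% lay above all controls, against 15.3% to 25.9%.

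The rule sets the Cu band on the mean of the Cu pools, while a left-out library is a single pool. Shares within the band and shares above all controls are therefore unlike measures and are not compared. The left-out Cu library itself stood from 1.4 to under 2 times control in 133 of 261 genes for Cu 1, 128 of 198 for Cu 2 and 136 of 250 for Cu 3, with medians of 1.49, 1.76 and 1.49. The controls served both to choose and to compare in these readings. Where a control was left out instead, 194, 239, 239 and 241 genes were chosen without controls 1 to 4, and the left-out control lay below every Hg and Cu library in 98.5%, 86.6%, 89.1% and 93.4% of them, against 13.9% to 28.5% of genes with a control mean of at least 1 CPM. Measured against the left-out control alone, the median Hg ratio was 3.45, 2.57, 2.69 and 2.62, and the median Cu ratio 1.8, 1.47, 1.49 and 1.49. Where a control was left out, the Hg and Cu libraries served both to choose and to compare, so these readings are a description.

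**Figure D5:**
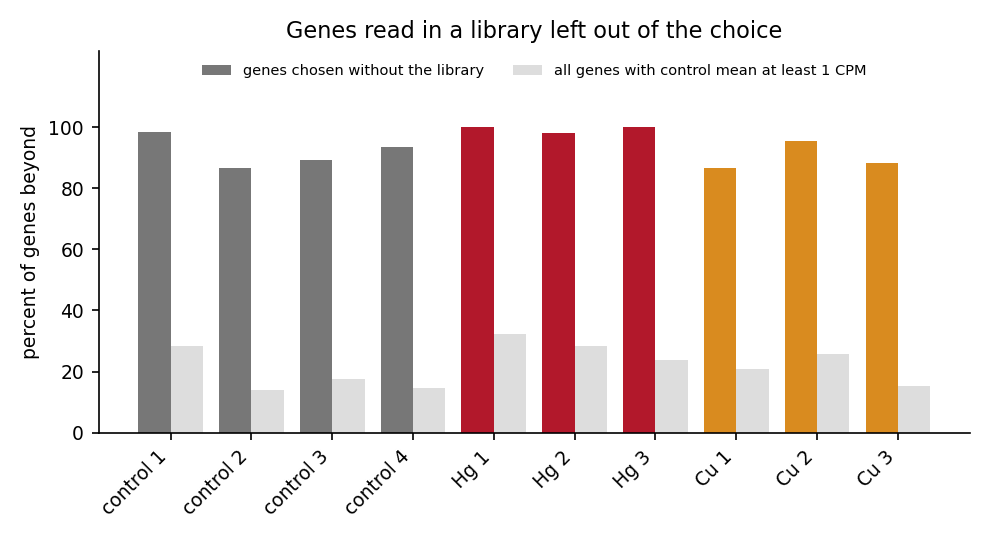
Percent of genes that lay beyond the other groups in a library left out of the choice (Hg and Cu libraries: above all controls; control libraries: below every Hg and Cu library), for genes chosen without that library (coloured bars) and for all genes with a control mean of at least 1 CPM (light bars). The coloured bars stand between 86.6% and 100%, the light bars between 13.9% and 32.4%. In each reading the libraries set against the left-out one had a part in choosing the genes.

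The neighbouring bands of the rule were set beside the members as values, with no test, since genes are not replicates. Genes with the same conditions but Cu at 2 times control or above numbered 120, with a median Hg ratio of 5.1, a median Cu ratio of 2.46 and a median control level of 10.4 CPM. Genes with Hg at least 2 times control, every Hg library above every control and Cu under 1.4 times control numbered 374, with medians of 2.32, 1.21 and 21.8 CPM. The 213 members lay between them in Hg, at 2.82, and had a median control level of 20.4 CPM. The Cd medians were 1.06, 1.04 and 0.997 times control in the order of high, middle and low Cu, and the Zn medians 1, 0.972 and 0.939, beside 1.01 and 0.979 over all tested genes.

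The rule asks every Hg and Cu library to lie above every control, which favours genes with little spread, so the spread of the members is given as a description. The median coefficient of variation of the members' CPM was 14.4% in control, 12.5% in Hg, 11.5% in Cu, 13% in Cd and 11.3% in Zn. Over all tested genes it was 17.3%, 14.9%, 14.1%, 14.7% and 13.4%. The median control level was 20.4 CPM in members and 12.1 CPM over tested genes, and the part of level in these spreads was not tested. Single members ranged from 0.253% to 54.3% in Hg and from 0.508% to 38.4% in Cu.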

How the data were processed

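Whole-animal RNA (Tri-reagent) was sequenced from TruSeq mRNA libraries, per the labels' protocols. STAR, Partek and DESeq stand in the submitters' processing notes without version or role. The sources used here give neither genome build nor strand. The authors deposited 4 tables of raw counts per gene model, not normalized, with the same control counts in each, which were used once. The authors' adjusted p-values for Hg and Cu were read from their deposited tables.

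Counts were fitted in R 4.3.3 with edgeR 4.0.16: filterByExpr left 16276 genes, libraries were TMM-scaled, and all 16 libraries entered a robust quasi-likelihood fit with a term per group. Calls had a Benjamini-Hochberg adjusted p under 0.05 over all tested genes. Ratios used CPM on column totals, as the rule does; a fold change SE is its size over the square root of F. The fitting code was run on simulated counts, drawn independently for each gene and so without genes that move together between pools. That run checks the code only, and nothing is read from it about the Cu calls. Pool-variable genes correlated above 0.8, with an SD above 0.5, with the gene of largest loading on the first principal component of deviations from group means (log2 CPM, prior count 2).

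The members, their limits and the alternatives were chosen with earlier results of these data known. The 13 named members are those with the largest, smallest or limiting values of each condition of the rule. Lists by function could not be used, since no identifier has an annotation. Alternatives were DESeq2 1.42.0, DESeq2 size factors, no filter, pairwise fits, a replicate block, other limits of the rule and other sets of libraries.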

Additional observations from a re-analysis of the deposited data

How the results depend on the processing

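The number of members, 213, stayed within 158 to 270 under other scalings and limits and ran from 194 to 261 with 1 library left out. The median log2 ratio of members to control ran from 1.42 to 1.53 in Hg, 0.63 to 0.72 in Cu, 0.01 to 0.09 in Cd and -0.08 to -0.03 in Zn with 1 library left out. The Zn median of -0.04 moved by more than the 0.02 spread of its pools: to -0.02 on TMM-scaled sizes, -0.08 with controls 3 and 4 alone, -0.07 in the 10 libraries with low pool-variable genes and 0.03 with controls 1 and 2 alone, so it has no settled sign. Members called higher in Cu ran from 103 to 159 with 1 library left out, lowest without Cu 2, and numbered 168 by DESeq2. Members higher in Cu than in Cd ran from 77 to 127 (77 without Cu 2) and were 72 in the 10 libraries, against 116. Those higher in Cu than in Zn were 85 in the 10 libraries, against 139. These fits had fewer libraries, and the part of lost power in the lower counts was not tested. Shares of tested genes called in them and by DESeq2 are not given here, so these counts are a description. With controls 3 and 4 alone 1 member was called lower in Cd (v1g241602, log2 fold change -0.94, edgeR adjusted p = 0.0396) and 1 lower in Zn (v1g182006, -0.42, edgeR adjusted p = 0.0451). v1g241602 measured 34.4, 48.4, 63.3 and 81.6 CPM in controls 1 to 4 and 27.9, 47.8 and 35.2 CPM in Cd. v1g182006 measured 47.4, 57.3, 67.9 and 66.3 CPM in controls 1 to 4 and 45, 45.9 and 51.7 CPM in Zn. In both, control 1, left out of that fit, lay within the range of the exposed pools. The share of tested genes called in that fit is not given, and the causes of these calls were not tested. In Hg, in Cu and between them, 0 fold changes of the 13 named members changed sign under the alternatives fitted. The rule orders Hg, Cu and control in every member, so nothing is read from this lack of sign changes. Of 312 fits of named members per contrast, the call ended or appeared in 2 in Hg, 27 in Cu and 30 between Hg and Cu.

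Equal pool numbers did not meet the criterion for pairing in every pair: 7 of 30 same-numbered pairs correlated above 0.1, over a range of -0.27 to 0.39. Hg 3 with Zn 3 (0.39), Cd 1 with control 1 (0.31), Cu 3 with Zn 3 (0.26) and Hg 3 with Cu 3 (0.24) all have high pool-variable genes. Cu 2 with Cd 2 (0.2), Hg 2 with Zn 2 (0.19) and Cu 2 with Zn 2 (0.15) all have low ones. With the replicate block 113 members were called higher in Cu, against 2.07% of tested genes, 213 in Hg, against 13.5%, 165 higher in Hg than in Cu, against 9.3%, and 0 in Cd or Zn. Only the control group has a pool numbered 4, so the block took up control 4 wholly. Contrasts with control then rested on the remaining controls, in a fit with more terms. The part of this in the Cu count, which was 157 without the block, was not tested. In the fit without the block, 33 of 71 members at 1.46 to 11.9 CPM in controls were called in Cu. The share of tested genes called at that level was not computed.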
